A study of Mus musculus with 10 samples.

Results

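The genes described here are 10 members of the CD28 and CD40 costimulation families, found by symbol among 770 gene probes, of which 750 were endogenous genes and 20 were reference genes. All 10 symbols were present, each with 1 probe. They comprise *Cd28* and its ligands *Cd80* and *Cd86*, *Icos* and its ligand *Icosl*, *Cd40* and its ligand *Cd40lg*, *Cd27* and its ligand *Cd70*, and *Cd83*, a surface protein of activated and mature antigen-presenting cells. The mRNAs were measured with a NanoString immune profiling panel, in which color-coded probes hybridized to single mRNA molecules are counted without amplification. YUMMER1.7 cells were injected into WT or Siah2 KO (Siah2-/-) mice, and 5 tumors of each group were collected at day 11. YUMMER1.7 is a mouse melanoma line with mutant Braf and a high mutation burden.

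The host mice of the knockout group lacked *Siah2*, which encodes a ubiquitin ligase, in all of their cells, whereas the injected melanoma cells were the same line in both groups and were not deleted for it. No other treatment was given, and the labels state neither age nor sex of the mice. The panel holds no probe for *Siah2* and none for the melanocyte genes *Mlana*, *Pmel* or *Tyr*, so neither the genotype nor the melanoma label was checked in these values. The series' design text names another cell line and another knockout, Yumm1.5 cells and Rnf5-/- mice, whereas the labels of all 10 samples name YUMMER1.7 and *Siah2*, and the sample labels were followed. Tumors are called WT replicates 2 to 6 and Siah2 KO replicates 1, 2, 3, 5 and 6, as labeled, and values are given in this order. The study's legend for these tumors gives the same number of animals of each genotype as tumors, which fits a single tumor per mouse, although the labels do not say so. That legend also places the collection a day earlier than the sample labels, which were followed.

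A T cell that meets its antigen needs a further signal to divide and survive. CD28 on the T cell provides it when it binds CD80 or CD86 on an antigen-presenting cell, and CTLA4 competes with CD28 for both ligands. ICOS, a relative of CD28, appears after activation and binds ICOSL. In the other direction, CD40L on activated T cells binds CD40 on dendritic cells, macrophages and B cells and raises their capacity to stimulate T cells. CD27 is carried by T cells and binds CD70, which appears briefly on activated lymphocytes and dendritic cells. In tumors, these pairs set how far infiltrating T cells are activated or restrained, and Tregs also carry ICOS, CTLA4 and CD27.

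Values are normalized counts, scaled by the authors to reference genes. Before this scaling factor, the 770 probes summed to 382860 to 581637 counts per tumor. The factor was 0.918 to 1.32 in WT and 1.03 to 1.60 in Siah2 KO tumors. Before this factor, the highest negative control probe stood between 2.37 and 10.7 in a tumor. It was multiplied by the tumor's factor when genes were compared with it. Each probe has its own efficiency, so levels were compared between tumors and not between genes. In Siah2 KO relative to WT tumors, most of 8 leukocyte genes and some of 7 T cell genes chosen as markers were higher. So were the 2 CD8 and 3 NK cell genes chosen. The 4 fibroblast genes chosen were lower, and values follow after the members.

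*Cd80*, *Cd86* and *Icos* were higher in Siah2 KO than in WT tumors. These 3 of the 10 genes had an adjusted p under 0.05 in limma's two-sided moderated test of log2(value + 1), with Benjamini-Hochberg adjustment over all 770 probes. None was lower. Over all probes, 41.0% passed in either direction, 31.3% as higher and 9.74% as lower, so the share among the 10 genes was no larger than over the panel. At an unadjusted p under 0.05 there were 6 of the 10 genes, against 49.9% of all probes. The log2 fold change, Siah2 KO minus WT, was positive for 7 genes and negative for 3, with a median of 0.45 against 0.24 over all probes. For *Cd80* and *Cd86*, all Siah2 KO tumors exceeded all WT tumors, a separation seen upwards for 24.5% and downwards for 7.01% of all probes.

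**Figure D1:**
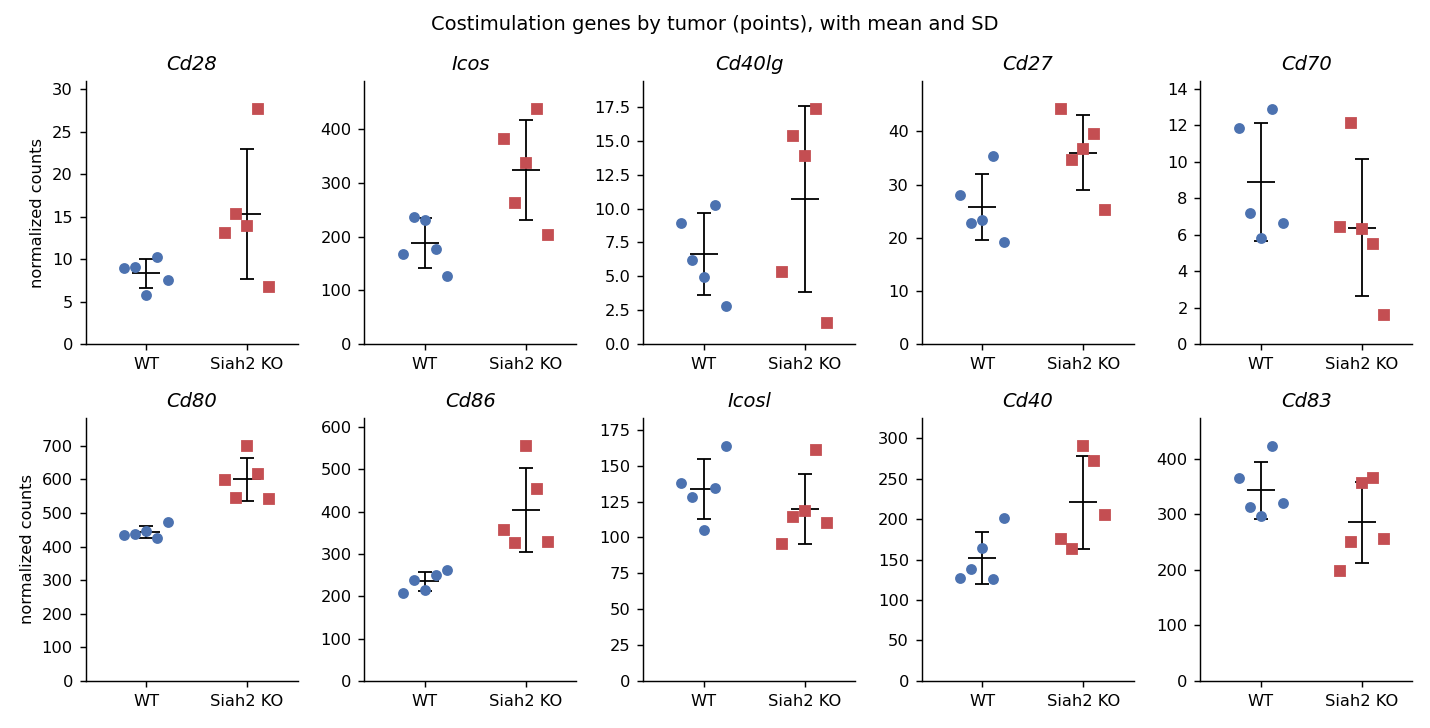
Normalized counts (linear axis from 0, a separate range for each gene) of the 10 costimulation genes in 5 WT tumors (circles) and 5 Siah2 KO tumors (squares), with the mean and SD in black. The groups do not overlap for *Cd80* (lowest Siah2 KO tumor 540.4, highest WT tumor 472) or *Cd86*, and *Cd28*, *Cd40lg* and *Cd70* lie under 30 normalized counts.

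*Cd28*, the receptor that gives the first costimulatory signal to T cells, was weakly detected. It was at 8.97, 9.13, 5.85, 10.3 and 7.61 normalized counts in WT replicates 2 to 6. In the Siah2 KO tumors it was at 13.1, 15.3, 13.9, 27.7 and 6.74. Hence 4 of the 5 Siah2 KO tumors lay above the highest WT tumor, replicate 5 stood apart at the top, and replicate 6 lay within the WT range. The means were 8.36 ± 1.69 in WT and 15.3 ± 7.63 in Siah2 KO tumors (SD, n = 5 each), and the log2 fold change of 0.70 (SE 0.30, 95% confidence interval 0.04 to 1.36) did not pass in limma (adjusted p = 0.085). Without Siah2 KO replicate 6, *Cd28* passed with a log2 fold change of 0.94 (limma adjusted p = 0.0098). Without Siah2 KO replicate 5, the highest tumor, it was at 0.47 (limma adjusted p = 0.15). The value also depended on the treatment of low counts, with 0.42 at a pseudocount of 10 and 0.09 when values under 20 were raised to 20. In 1 of the 10 tumors *Cd28* did not exceed the highest negative control.

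Both ligands of CD28 rose. *Cd80* was at 435, 439, 445, 426 and 472 normalized counts in the WT tumors. The Siah2 KO tumors had 598, 545, 699.6, 617 and 540.4. The WT tumors differed little among themselves, and every Siah2 KO tumor was higher. The means were 444 ± 17.5 and 600.0 ± 64.8 (SD, n = 5 each), with a log2 fold change of 0.43 (SE 0.09, 95% confidence interval 0.23 to 0.63). The adjusted p was 0.0042 in limma, and the two-sided exact permutation p of 0.0079 was the smallest that 252 divisions of the tumors can give.

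*Cd86*, the other ligand of CD28 and CTLA4, was at 208, 238, 216, 250.5 and 263 normalized counts in the WT tumors. Siah2 KO tumors were at 356, 326, 556, 453 and 329. Again the groups were apart, and replicates 3 and 5 carried the highest Siah2 KO values. The means of 235 ± 23.0 and 404 ± 99.3 (SD, n = 5 each) differed by 0.75 on the log2 scale (SE 0.16, 95% confidence interval 0.40 to 1.10, limma adjusted p = 0.0042). The exact permutation p was 0.0079. Leaving out any single tumor kept both ligands past the threshold, with log2 fold changes of 0.37 to 0.47 for *Cd80* and 0.63 to 0.82 for *Cd86*.

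The call of *Cd80* depended on the scaling between tumors. When the tumors were scaled to a common median of their endogenous probes, which moved the median log2 fold change of all probes from 0.24 to -0.01, *Cd80* differed by 0.16 (limma adjusted p = 0.15) and *Cd86* by 0.49 (limma adjusted p = 0.0060). On that scale *Icosl* (-0.43, limma adjusted p = 0.024) and *Cd83* (-0.56, limma adjusted p = 0.010) passed as lower. Over all probes it called 21.2% higher and 19.7% lower, and the 10 genes split into 1 higher and 2 lower.

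*Icos*, the inducible relative of CD28, rose 1.71-fold. It was at 167, 237, 232, 177 and 127 normalized counts in the WT tumors. The values in Siah2 KO tumors were 383, 262, 337, 437 and 204. The Siah2 KO tumors lay above all WT tumors with the exception of replicate 6, which lay between WT replicates 5 and 4. The means were 188 ± 46.3 and 324 ± 93.2 (SD, n = 5 each), with a log2 fold change of 0.77 (SE 0.24, 95% confidence interval 0.24 to 1.30) and an adjusted p of 0.025 in limma. The exact permutation p was 0.032. The call was lost without WT replicate 2, 5 or 6 or without Siah2 KO replicate 1, 3 or 5, where the limma adjusted p was 0.050 to 0.061 and the log2 fold change 0.64 to 0.76. It was also lost with median scaling (0.50, limma adjusted p = 0.087).

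*Icosl*, which encodes the ligand of ICOS on antigen-presenting and stromal cells, did not pass. It was at 138, 128, 105, 134 and 164 normalized counts in the WT tumors. In the Siah2 KO tumors it was at 95.2, 115, 119, 161 and 109.8. The groups overlapped, with Siah2 KO replicate 5 near the top of the WT range. It differed by -0.17 on the log2 scale (95% confidence interval -0.52 to 0.18, limma adjusted p = 0.42), so a fall by 0.52 or a rise by 0.18 on the log2 scale was within the interval.

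*Cd40*, the receptor through which helper T cells activate antigen-presenting cells, was at 127, 139, 165, 126 and 201 normalized counts in the WT tumors. The Siah2 KO tumors had 175, 163, 290.4, 271 and 205. Replicates 3 and 5 were the highest, as for *Cd86*, and 3 of the 5 Siah2 KO tumors exceeded the highest WT tumor. The means were 152 ± 31.9 and 221 ± 57.4 (SD, n = 5 each). This difference of 0.52 on the log2 scale (SE 0.20, 95% confidence interval 0.08 to 0.97) missed the threshold in limma (adjusted p = 0.056), with an exact permutation p of 0.040. It passed without WT replicate 6 (0.63, limma adjusted p = 0.029) and without Siah2 KO replicate 2 (0.63, limma adjusted p = 0.032), and was at 0.42 (limma adjusted p = 0.12) without Siah2 KO replicate 3. With median scaling it was at 0.26 (limma adjusted p = 0.25).

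*Cd40lg*, the ligand of CD40 on activated CD4 T cells, was at 8.97, 6.21, 4.93, 10.3 and 2.79 normalized counts in the WT tumors. Siah2 KO tumors were at 5.33, 15.3, 13.9, 17.3 and 1.59. The Siah2 KO tumors included both the highest and the lowest values. The log2 fold change was 0.40 with a wide 95% confidence interval of -0.81 to 1.62 (limma adjusted p = 0.58). In 7 of 10 tumors *Cd40lg* exceeded the highest negative control. The value was 0.87 without Siah2 KO replicate 6 (limma adjusted p = 0.11) and 0.16 without Siah2 KO replicate 5 (limma adjusted p = 0.84).

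*Cd27*, a TNF receptor family member on T cells, was at 28.1, 22.8, 23.3, 35.3 and 19.2 normalized counts in the WT tumors. The values in Siah2 KO tumors were 44.2, 34.5, 36.6, 39.5 and 25.3. Most Siah2 KO tumors were higher, but WT replicate 5 reached their range and replicate 6 lay in that of the WT tumors. A log2 fold change of 0.48 (SE 0.19, 95% confidence interval 0.06 to 0.89) had an adjusted p of 0.063 in limma and an exact permutation p of 0.048. It passed without WT replicate 5 (0.59, limma adjusted p = 0.023) or Siah2 KO replicate 6 (0.59, limma adjusted p = 0.019). With median scaling it was at 0.22 (limma adjusted p = 0.36).

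*Cd70*, the ligand of CD27, was at 11.9, 7.18, 5.85, 12.9 and 6.65 normalized counts in the WT tumors. In the Siah2 KO tumors it was at 6.44, 12.1, 6.30, 5.49 and 1.59. The ranges overlapped, and 8 of 10 tumors exceeded the highest negative control. The log2 fold change was -0.54 (95% confidence interval -1.40 to 0.33, limma adjusted p = 0.30). Without Siah2 KO replicate 6, the lowest tumor, it was at -0.20 (limma adjusted p = 0.58), and with a pseudocount of 10 at -0.22.

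*Cd83*, which marks mature dendritic cells and activated lymphocytes, was at 366, 313, 297, 423 and 319.9 normalized counts in the WT tumors. The Siah2 KO tumors had 198, 251, 357, 366 and 256. Siah2 KO replicates 3 and 5 lay in the WT range, and the other 3 lay below it. Its log2 fold change of -0.29 (95% confidence interval -0.70 to 0.11) did not pass in limma (adjusted p = 0.23).

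Of the 10 genes, 7 averaged 20 normalized counts or more, the exceptions being *Cd28*, *Cd40lg* and *Cd70*. Siah2 KO replicate 6 had the lowest value of its group for *Cd28*, *Icos*, *Cd40lg*, *Cd27*, *Cd70* and *Cd80*. Siah2 KO replicate 3 had the highest value of its group for *Cd80*, *Cd86* and *Cd40*, and replicate 5 for *Cd28*, *Icos*, *Icosl*, *Cd40lg* and *Cd83*. Among probes with a mean of at least 20, those whose log2 values, with each group's mean removed, followed *Cd80* most closely over the 10 tumors were *Clec4n*, a C-type lectin of myeloid cells, with a Pearson r of 0.92, and *Cd86*, with 0.89. *Cd40* was followed by *Tnfsf10*, which encodes the death ligand TRAIL (r = 0.90), and by *Icam1*, an adhesion molecule (r = 0.87). *Cd28* was followed by *Csf1r*, the receptor for the macrophage growth factor CSF1, and *Ly96*, a partner of Toll-like receptor TLR4, each at r = 0.94. But *Cd28* was weakly detected, and Siah2 KO replicate 5 was the highest tumor for both *Cd28* (27.7) and *Csf1r* (2052, against up to 1649 in WT). The weight of that tumor in the correlations of *Cd28* was not tested. These correlations were the highest among 601 or 602 probes in 10 tumors that share their scaling, and they are given as a description. On the mouse chromosomes, *Cd28*, *Ctla4* and *Icos* are neighbors with 0 protein-coding genes between them, and 24 lie between *Cd86* and *Cd80*.

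Most leukocyte genes were higher in the Siah2 KO tumors. In a bulk tumor, more cells of a type and more RNA per cell cannot be told apart. Each tumor's log2 values were therefore also set against the median of 8 leukocyte genes (*Ptprc*, *Cd53*, *Cd37*, *Lcp1*, *Itgb2*, *Spn*, *Cd48* and *Selplg*), or of 7 T cell genes (*Cd3d*, *Cd3e*, *Cd3g*, *Cd247*, *Cd2*, *Cd5* and *Cd6*). After this subtraction, the panel's median log2 fold change stood at -0.32 and -0.55, respectively. In limma, 10.1% of all probes were higher and 34.0% lower relative to leukocyte genes, and 3.77% were higher and 30.6% lower relative to T cell genes.

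On both relative scales *Icosl*, *Cd83* and *Cd70* were lower in Siah2 KO tumors and none of the 10 genes was higher. This share, 3 of 10, was no larger than over the panel. There, 34.0% of probes were lower relative to leukocyte genes and 30.6% relative to T cell genes. *Icosl* lay -1.75, -1.92, -1.95, -2.0 and -1.71 log2 units from the leukocyte median in the WT tumors. In the Siah2 KO tumors it lay at -2.81, -2.44, -2.65, -2.56 and -2.47. The groups did not overlap, but the share of all probes so separated on the relative scales was not counted. The relative log2 fold change was -0.72 (95% confidence interval -0.97 to -0.47, limma adjusted p = 0.00081). Against T cell genes it was -0.95 (limma adjusted p = 0.017), a call lost without WT replicate 6 (-0.82, limma adjusted p = 0.053) or Siah2 KO replicate 1 (-0.79, limma adjusted p = 0.051).

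*Cd83* stood -0.35, -0.64, -0.46, -0.36 and -0.75 log2 units from the leukocyte median in the WT tumors. The Siah2 KO tumors stood at -1.76, -1.32, -1.07, -1.38 and -1.25. All Siah2 KO tumors were below all WT tumors, again without a count over all probes beside it. The relative log2 fold change was -0.85 (95% confidence interval -1.17 to -0.52, limma adjusted p = 0.0013), and against T cell genes it was -1.08 (limma adjusted p = 0.010). *Cd70* was at -1.32 relative to T cell genes (limma adjusted p = 0.0063). Relative to leukocyte genes it was at -1.09 (limma adjusted p = 0.037), and this last call was lost in 8 of the 10 fits that left out a tumor, with a limma adjusted p of up to 0.083. The 2 fits that kept it were those without WT replicate 6 or Siah2 KO replicate 2.

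The 3 genes that rose on the authors' scale did not pass on either relative scale. Relative to leukocyte genes, *Cd80* was at -0.12 (95% confidence interval -0.42 to 0.17), *Cd86* at 0.20 (-0.09 to 0.49) and *Icos* at 0.22 (-0.30 to 0.73), with limma adjusted p of 0.48, 0.24 and 0.47. Relative to T cell genes, the receptors of T cells were at -0.02 (*Icos*, -0.54 to 0.51), -0.09 (*Cd28*, -0.62 to 0.44) and -0.31 (*Cd27*, -0.85 to 0.22). The intervals leave room for changes of over 0.5 in either direction for *Icos*.

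**Figure D2:**
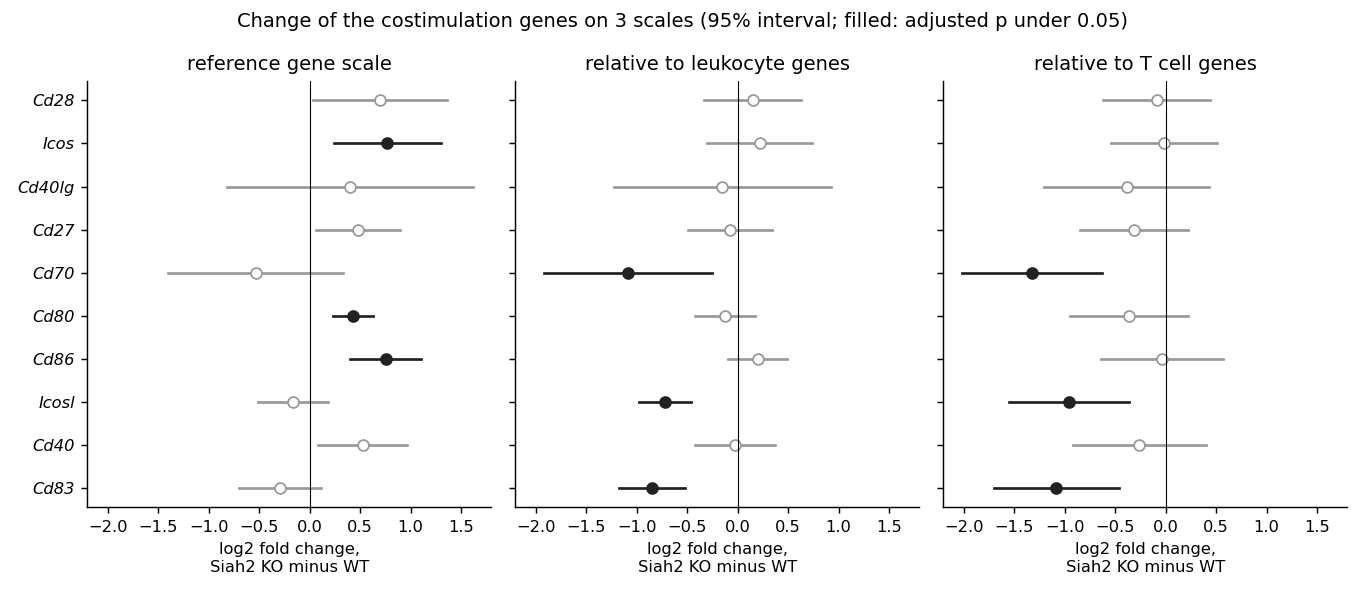
Log2 fold change, Siah2 KO minus WT, of the 10 genes with its 95% confidence interval on the authors' reference gene scale and relative to the median leukocyte or T cell gene of each tumor, for 5 tumors a group. Filled points have an adjusted p under 0.05 in limma: *Icos*, *Cd80* and *Cd86* to the right of 0 on the first scale, and *Cd70*, *Icosl* and *Cd83* to the left of 0 on the others.

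Ratios of 2 well-detected genes within a tumor depend little on that tumor's scaling factor. For the weakly detected *Cd28*, *Cd40lg* and *Cd70*, the 1 added before log2 leaves some dependence. In all, 8 ratios were compared by two-sided exact permutation tests, adjusted over the 8. In 5 of them the groups differed. How many other gene pairs of the panel would differ or separate in the same way was not counted. The ratio of *Cd83* to *Cd86*, both found on activated antigen-presenting cells, was 0.81, 0.39, 0.46, 0.75 and 0.28 on the log2 scale in the WT tumors. In the Siah2 KO tumors it was -0.84, -0.38, -0.64, -0.31 and -0.36. All Siah2 KO tumors lay below all WT tumors, with a difference of -1.04 (exact p = 0.0079, adjusted 0.032).

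The ratio of the 2 CD28 ligands shifted toward *Cd86*. Log2 *Cd80* over *Cd86* was 1.06, 0.88, 1.04, 0.76 and 0.84 in the WT and 0.75, 0.74, 0.33, 0.44 and 0.71 in the Siah2 KO tumors. The groups did not overlap, although WT replicate 5 and Siah2 KO replicate 1 nearly met. The difference was -0.32 (exact p = 0.0079, adjusted 0.032). *Cd86* therefore differed more between the groups than *Cd80* did.

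Of the 3 receptor and ligand pairs compared, 2 also differed. *Icos* over *Icosl* differed by 0.94 (exact p = 0.016, adjusted 0.038), with group means of 0.46 ± 0.58 in WT and 1.40 ± 0.41 in Siah2 KO tumors (SD, n = 5 each). *Cd27* over *Cd70* differed by 1.01 (exact p = 0.024, adjusted 0.038), with 1.47 ± 0.24 and 2.48 ± 0.69. *Ctla4* over *Cd28* differed by -0.78 (exact p = 0.024, adjusted 0.038), and in each of these 3 ratios the groups overlapped. With a pseudocount of 10, *Cd27* over *Cd70* was at 0.59 (adjusted exact p = 0.042) and *Ctla4* over *Cd28* at -0.50 (adjusted exact p = 0.063), the latter no longer passing. With the Siah2 KO minus WT difference given first, *Cd40* over *Cd86* (-0.23, adjusted exact p = 0.22), *Icos* over *Cd28* (0.07, adjusted exact p = 0.82) and *Cd40* over *Cd40lg* (0.12, adjusted exact p = 0.82) did not pass.

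With 1 tumor left out, 126 divisions remain and the smallest exact p is 0.016. Then 0 of the 8 ratios passed without WT replicate 2, 3, 5 or 6 or Siah2 KO replicate 1, 3 or 5, 3 passed without WT replicate 4 or Siah2 KO replicate 2, and 4 passed without Siah2 KO replicate 6. For *Cd80* over *Cd86* and *Cd83* over *Cd86* the groups stay apart with any tumor left out, so both kept that smallest exact p. Their adjusted exact p of 0.032 to 0.063 therefore depended on how many other ratios came near it. The sizes moved less, as *Cd83* over *Cd86* ranged from -1.11 to -0.96 and *Cd80* over *Cd86* from -0.36 to -0.26. *Icos* over *Icosl* ranged from 0.73 to 1.10.

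**Figure D3:**
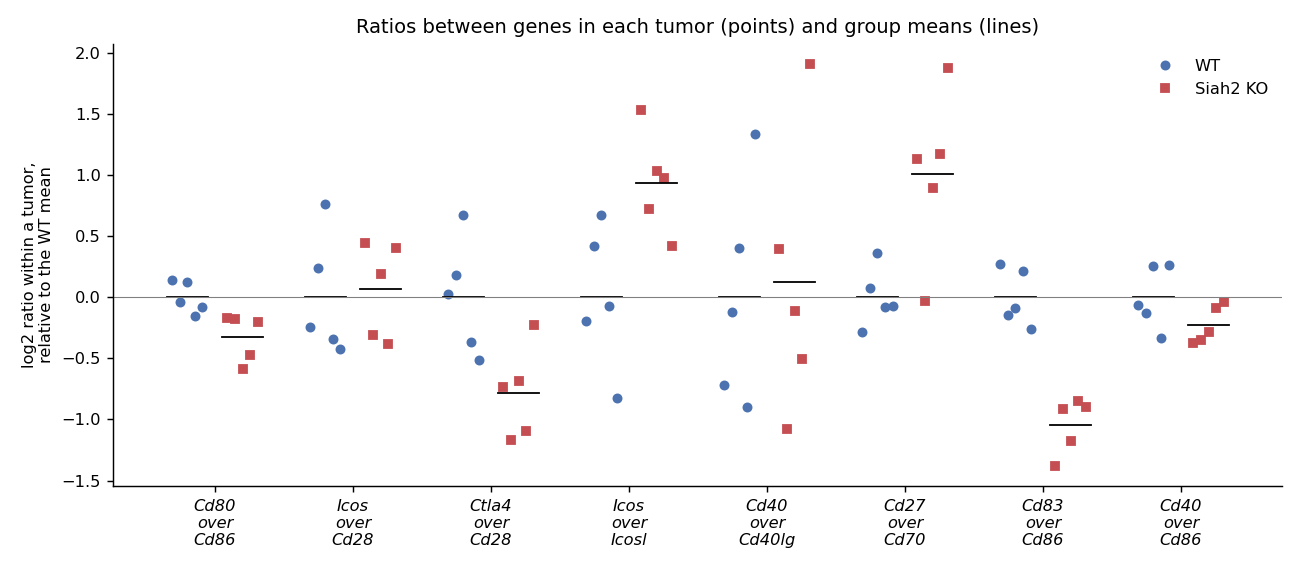
Log2 ratio of 2 genes within each tumor, shown relative to the WT mean of that ratio, for 5 WT tumors (circles) and 5 Siah2 KO tumors (squares), with group means as lines. All Siah2 KO tumors lie below all WT tumors for *Cd80* over *Cd86* and for *Cd83* over *Cd86*.

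Genes of the pathways around these molecules were counted in 6 lists. Over all probes 31.3% were called higher and 9.74% lower on the authors' scale, and no list was tested as a set. Of 6 genes on the inhibitory side of the CD28 family, 2 were higher, 1 was lower and 3 did not pass, with a median log2 fold change of 0.32 against 0.24 over all probes. *Cd274*, which encodes the inhibitory ligand PD-L1 and also stands in the mature dendritic cell list, went from 471 ± 81.8 to 2047 ± 811 normalized counts (SD, n = 5 each, log2 fold change 2.05, limma adjusted p = 0.00039). *Pdcd1*, its receptor PD-1 on T cells, had a log2 fold change of 1.37 (limma adjusted p = 0.00068). *Cd276*, a B7 family member found on tumor and stromal cells, fell by 0.39 on the log2 scale (limma adjusted p = 0.0046). *Ctla4* stood at 147 ± 34.4 in WT and 140.1 ± 41.9 in Siah2 KO tumors (log2 fold change -0.08, limma adjusted p = 0.79). *Pdcd1lg2* (0.73, limma adjusted p = 0.20) and *Btla* (-0.97, limma adjusted p = 0.11) did not pass.

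Among 14 genes that carry signals from CD28 and the T cell receptor, 5 were higher, none was lower and 9 did not pass. The share of higher genes was near the 31.3% of all probes, and the median of 0.23 was near the panel's 0.24. Among those that rose were the tyrosine kinases *Lck* (0.69, limma adjusted p = 0.0058), *Zap70* (0.58, limma adjusted p = 0.019) and *Fyn*. *Fyn* was at 0.30 (limma adjusted p = 0.019) and turned to -0.11 with quantile normalization. Median scaling left 2 genes higher and none lower, with *Zap70* no longer passing (0.32, limma adjusted p = 0.10). Quantile normalization left 1 higher and 2 lower, the latter *Nfatc3* (-0.29, limma adjusted p = 0.022) and *Nfkb1* (-0.26, limma adjusted p = 0.015), and *Lck* and *Zap70* did not pass. *Il2*, the cytokine that CD28 signals promote, was near the background in both groups at 4.25 ± 2.62 and 5.29 ± 3.58 normalized counts (SD, n = 5 each). The 3 calcineurin-dependent factors *Nfatc1*, *Nfatc2* and *Nfatc3* did not pass on the authors' scale, with log2 fold changes of 0.07, 0.19 and 0.03.

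Of 15 genes that act below CD40 and CD27, 3 were higher, 1 was lower and 11 did not pass, and their median of 0.08 lay under that of all probes. The genes that rose were *Tnfaip3*, an NF-κB-induced inhibitor of NF-κB (0.89, limma adjusted p = 0.0016), and 2 parts of the IκB kinase complex, *Ikbkg* (0.35, limma adjusted p = 0.042) and *Chuk* (0.25, limma adjusted p = 0.038), of which *Chuk* turned to -0.01 with median scaling and -0.12 with quantile normalization. *Tab1*, an adaptor of the kinase TAK1, was the gene that fell (-0.27, limma adjusted p = 0.041). The adaptors *Traf2*, *Traf3* and *Traf6*, which bind the tails of these receptors, and the alternative NF-κB subunits *Relb* and *Nfkb2* did not pass on the authors' scale, with log2 fold changes of -0.16 to 0.22. The balance of the list turned with the scaling, to 1 higher and 5 lower with median scaling and 1 higher and 6 lower with quantile normalization. *Nfkb2* (-0.42, limma adjusted p = 0.0025) and *Traf3* (-0.42, limma adjusted p = 0.012) passed as lower with median scaling, *Ikbkg* was at 0.08 (limma adjusted p = 0.62), and *Tnfaip3* was the gene that stayed higher under both. The count was sensitive to single tumors, with 1 gene called without WT replicate 2, 3 or 6 or Siah2 KO replicate 1, and 2 without WT replicate 5 or Siah2 KO replicate 2 or 3.

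Of 8 cytokines that antigen-presenting cells make after CD40 ligation, 3 were higher, 1 was lower and 4 did not pass, with a median of 0.29. *Tnf* (1.52, limma adjusted p = 0.00030) and *Il1b* (1.51, limma adjusted p = 0.00057), both inflammatory cytokines, rose. *Il27* also passed (1.03, limma adjusted p = 0.038), but near the background, at 3.06 ± 2.18 and 6.59 ± 1.98 normalized counts (SD, n = 5 each). Its groups overlapped (exact permutation p = 0.056). It did not pass with median scaling (limma adjusted p = 0.070) or quantile normalization (limma adjusted p = 0.12). *Il12b*, the shared subunit of IL-12 and IL-23, went from 46.1 ± 4.59 to 26.6 ± 12.7 (SD, n = 5 each, log2 fold change -0.86, limma adjusted p = 0.017).

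Of the 8 genes of the ICOS helper programme, 1 was higher and 7 did not pass, with a median of -0.03. The gene that passed was *Bcl6*, the transcription factor of follicular helper T cells (0.50, limma adjusted p = 0.0077), and *Cxcr5* and *Il21*, which mark those cells, were at 1.30 to 2.04 normalized counts in the group means. With median scaling *Bcl6* was at 0.23 (limma adjusted p = 0.13) and the gene called was *Maf*, a factor of helper T cells and macrophages, as lower (-0.56, limma adjusted p = 0.0088). Of 9 genes of the mature dendritic cell programme, 1 was higher, 2 were lower and 6 did not pass, with a median of 0.12. *Cd274* rose, whereas *Ccl22*, a chemokine that attracts Tregs, went from 174 ± 44.0 to 70.7 ± 31.4 (SD, n = 5 each, log2 fold change -1.37, limma adjusted p = 0.0063), and *Il12b* also stood in this list. *Ccr7*, which guides mature dendritic cells to lymph nodes, was at -0.65 (limma adjusted p = 0.12).

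**Figure D4:**
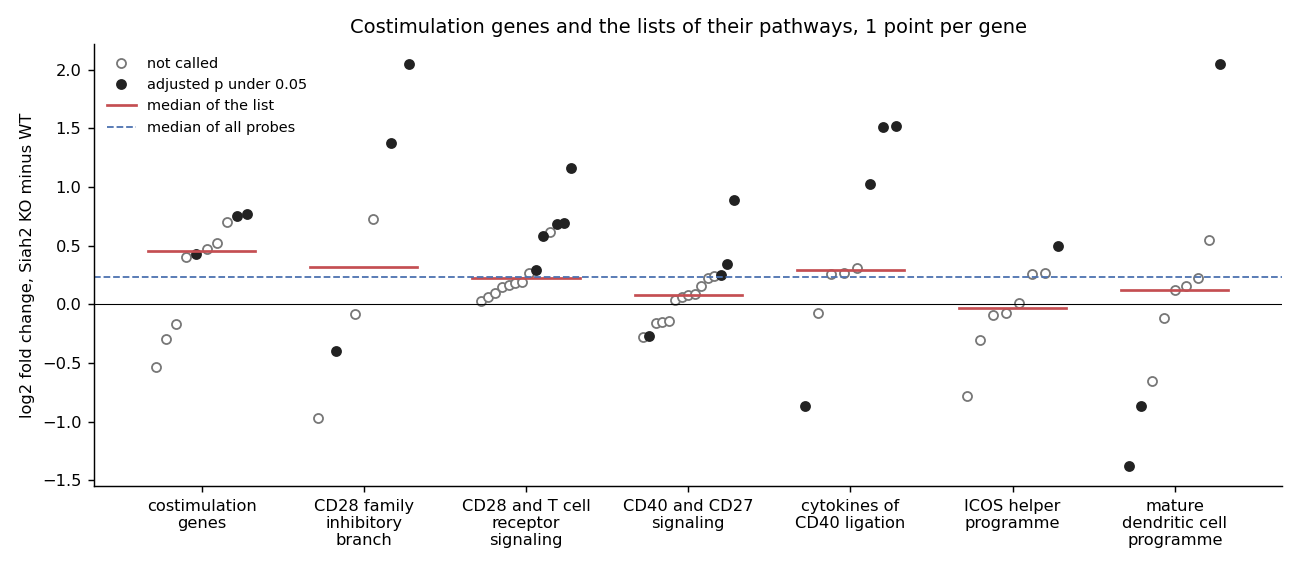
Log2 fold change, Siah2 KO minus WT, of the 10 costimulation genes and of 6 lists from their pathways, 1 point per gene, filled where the adjusted p in limma was under 0.05. Red lines are list medians and the dashed line is the median of all probes at 0.24; *Cd274*, at 2.05, is the top point in both lists that hold it.

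Markers of the cells that carry these molecules differed in part between the groups. Their association with the members and their part in the results above were not tested. Beside *Icos*, *Cd28* and *Cd27*, 3 of 7 T cell genes were higher and none was lower. The 7 genes summed to 490.0 to 625 normalized counts in WT and 623 to 1207 in Siah2 KO tumors. With median scaling *Cd3e* no longer passed (0.53, limma adjusted p = 0.11) and *Cd6* passed as lower (-0.48, limma adjusted p = 0.017). *Cd8a*, a CD8 T cell gene, rose by 1.13 (limma adjusted p = 0.0023), *Cd4* was at -0.29 (limma adjusted p = 0.19, and 0.0054 at -0.55 with median scaling) and *Foxp3*, the factor that defines Tregs, was lower at -0.92 (limma adjusted p = 0.018). Of 7 Treg genes, *Foxp3* was the gene called, and their sum overlapped, with 556 to 932 in WT and 575 to 978 in Siah2 KO tumors. With median scaling *Ikzf2* also passed as lower (-0.52, limma adjusted p = 0.0044).

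Beside *Cd80*, *Cd86* and *Cd40*, 7 of 8 leukocyte genes were higher, against 31.3% of all probes. The 8 genes summed to 4643 to 5710 normalized counts in WT and 6860 to 10324 in Siah2 KO tumors, without overlap. With median scaling *Cd48* (0.32, limma adjusted p = 0.055), *Selplg* (0.24, limma adjusted p = 0.093) and *Spn* (0.23, limma adjusted p = 0.11) no longer passed. Of 7 macrophage genes, 3 were higher and 1 lower, with sums of 8006 to 9373 and 8509 to 13300.1. Of 6 dendritic cell genes, 2 (*Irf8* and *Itgax*) were higher and none was lower, with sums of 798 to 876 and 965 to 1403. *Irf8* made up most of these sums, with group means of 545 and 893. The log2 fold change was positive for 4 of the 6 and negative for 2, *Flt3* (-0.53) and *Ccr7* (-0.65), which did not pass. With median scaling *Flt3* (-0.79, limma adjusted p = 0.034) and *Ccr7* (-0.91, limma adjusted p = 0.019) passed as lower. All 3 NK cell genes chosen and 1 of 4 neutrophil genes were higher. B cell genes, 1 of 7 higher, summed to 51.7 to 83.2 and 69.5 to 107, and the defining markers *Ms4a1* and *Cd79a* were close to the floor, with group means of 1.06 to 2.58. Beside *Icosl*, which stromal cells also express, all 4 fibroblast genes chosen were lower, with sums of 16494 to 21344 and 10332 to 12326. Of 6 endothelial genes, 1 was higher and 2 were lower. With median scaling *Kdr*, *Tie1* and *Tek* also passed as lower (limma adjusted p = 0.028, 0.017 and 0.037).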

How the data were processed

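The authors deposited signal as normalized counts. Per their methods, nSolver was used for quality control and counts were scaled to 20 reference genes. The values also hold a background subtraction and a floor of 1 before scaling, as read from steps in the low values. Where the factor was under 1, as in WT replicate 4 (0.918), the lowest value was still 1, so a floor also acted after scaling. The total of 784 rows includes 6 positive and 8 negative control probes, which were not tested. Groups came from the sample titles. Log2(value + 1) of 770 probes was compared in R 4.3.3 by the moderated test of limma 3.58.1 (lmFit, then eBayes), two-sided, adjusted over 770 probes and called at an adjusted p under 0.05. Exact permutation tests over 252 divisions of 10 tumors used Python 3.11.15. Ratios are differences of log2(value + 1), adjusted over 8. Sums per tumor before scaling were 382860 to 581637, and counting error was not separated from variation between tumors. The named genes are the 10 members, *Ctla4*, *Foxp3*, *Cd4*, *Cd8a*, list genes at an adjusted p under 0.05 with a mean of at least 20, and the 2 probes most correlated with *Cd28*, *Cd80* and *Cd40*. Some genes that meet this rule are not reported here. Other genes named for a role in a list were chosen after their values were seen. The members and lists were chosen with earlier results of these data known. Gene order came from RefSeq GRCm38.p6. Scripts were tested on simulated data. Scaling, pseudocount, filter, floor, test, trend, replicate block and each tumor were varied.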

Additional observations from a re-analysis of the deposited data

How the results depend on the processing

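The directions of the 3 called genes held under the scalings, settings and left-out tumors tried, the relative scales aside. The call count of 3 of 10 became 0 with scaling to the positive controls, where 94 instead of 316 of all probes were called, 5 with a filter at a mean of 20 (*Cd40* and *Cd27* added), and 2 to 5 with a tumor left out, the 5 being without Siah2 KO replicate 6 (*Cd28* and *Cd27* added). Quantile normalization called *Cd86*, *Icosl* and *Cd83*, and left *Cd80* at 0.06 (limma adjusted p = 0.55). Over all probes it split into 153 higher and 181 lower, and median scaling into 163 and 152, against 241 and 75. *Cd40* also passed with a pseudocount of 10 (limma adjusted p = 0.048) or an intensity trend (0.045 in limma), and not with quantile (0.24, limma adjusted p = 0.27) or positive control scaling (0.36, limma adjusted p = 0.59). Of the ratios, 5 passed, 3 with quantile normalization, and 0 to 4 with a tumor left out. Relative to leukocyte genes, *Cd70* missed with the methods' t-test (adjusted p = 0.070 over all probes, after Benjamini-Hochberg). The pathway counts moved from 5 to 2, 3 and 0 (T cell receptor signaling, with median, quantile and positive control scaling), from 4 to 7 and 0 (CD40 and CD27 signaling, quantile and positive control), from 4 to 2 (cytokines, positive control) and from 1 to 0 (ICOS programme, positive control). Median scaling and quantile normalization turned the ICOS programme's call from *Bcl6* higher to *Maf* lower, and added *Btla* and *Ccr7* as lower. The cause was not tested. The relative-scale alternatives and the pseudocount of 10 for ratios were chosen after seeing the data.

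Replicate numbers 2, 3, 5 and 6 occur in both groups, and the deviations of same-numbered tumors correlated at 0.05, 0.14, 0.18 and 0.49. The main test did not take the numbers as pairs, and these correlations do not settle whether the tumors were paired. Of the 4 WT tumors, replicates 2, 5 and 6 correlated best with their own number and replicate 3 with Siah2 KO replicate 2. Of the 4 Siah2 KO tumors, replicates 3, 5 and 6 did so and replicate 2 correlated best with WT replicate 3. With the replicate block on these 8 tumors, 2 members (*Cd86* and *Icos*) and 235 of all probes passed, and *Cd80* had a limma adjusted p of 0.057. CD40 and CD27 signaling moved from 4 genes to 1, and to 1 to 3 with a tumor left out. Without the block the same 8 tumors gave 2 members (*Cd80* and *Cd86*), 2 genes of T cell receptor signaling and 1 of CD40 and CD27 signaling. A planned count-based test was not run, because background subtraction leaves a fractional offset and raw counts could not be recovered. *Cd28*, *Cd40lg* and *Cd70* lie near the negative controls.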
